A study of Mus musculus with 6 samples.

Results

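Pax3, Pax7, Olig3, Dbx1, Dbx2, Irx3, Nkx6-1, Nkx6-2, Olig2 and Nkx2-2 encode transcription factors that mark progenitor domains along the dorsoventral axis of the developing spinal cord, and they are given here in their order from dorsal to ventral. The 10 genes were chosen by this known role and found by symbol, as 10 of 51733 gene symbols with counts in the RNA-seq of this study. Total RNA was sequenced from neural progenitor cells (NPCs) of mouse neural tubes, taken at E13.5 and sorted for Sox2 by FACS. The labels call the source neural tubes, which include the brain as well as the spinal cord, and do not give how much of each a sample held. The 3 control libraries, named here A, B and C, carry the label wildtype, and the 3 Ybx1-KO libraries, named D, E and F, the label YBX1KO. The knockouts were homozygous for the germline allele Ybx1tm1Ley, so the Ybx1 gene was disrupted in every embryonic tissue and not in NPCs alone. The controls were their siblings. Both groups carried a Sox2-eGFP knock-in reporter for the sort (allele Sox2tm1Hoch), the strain is labelled C57BL/6, and embryos of both sexes were used.

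Along the spinal cord, Sonic hedgehog (Shh) from the notochord and floor plate acts on ventral progenitors, and BMP and Wnt ligands from the roof plate act on dorsal ones. Progenitors answer these signals with transcription factors, several of which repress each other across a boundary, so that each domain keeps its own combination and gives rise to its own class of neurons. Most of these genes are also used elsewhere: Pax3 and Pax7 in neural crest, midbrain and muscle, Olig2 in the ventral forebrain and with Nkx2-2 in oligodendrocyte precursors, and several of the others in hindbrain and midbrain.

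None of the 10 genes is annotated at more than 1 locus. In GENCODE M21 on GRCm38, Pax3 lies on chromosome 1 at 78101267-78197134, Pax7 on chromosome 4 at 139737062-139833528, Olig3 on chromosome 10 at 19356533-19358604, Dbx1 on chromosome 7 at 49631499-49636849 and Dbx2 on chromosome 15 at 95623563-95655960. Irx3 lies on chromosome 8 at 91798525-91802067, Nkx6-1 on chromosome 5 at 101658139-101664996, Nkx6-2 on chromosome 7 at 139579376-139582797, Olig2 on chromosome 16 at 91225457-91228677 and Nkx2-2 on chromosome 2 at 147177546-147194243. Olig3 and Olig2 are on the plus strand and the others on the minus strand. No stretch of 50 bases in the transcripts of any of them is shared with another of the 10.

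YBX1, the protein lost in the knockout, is named after the Y-box, an inverted CCAAT element with the core CTGATTGG that was first found in promoters. Of the 10 genes, 9 had a promoter entry in RefSeq (GRCm38.p6), and the 250 bases before the start in each entry were searched on both strands for CTGATTGG, for its shorter part ATTGG, for the GLI site GACCACCCA and for the E-box CANNTG. These starts differ from the GENCODE M21 ends given above. The searched bases of Pax7, Dbx2, Irx3, Nkx6-1 and Nkx2-2 lay inside the GENCODE gene, and those of Olig2 in part. For these genes the bases before the GENCODE start were not searched, or only in part for Olig2. The promoters of Dbx1 and Nkx6-2 held the full Y-box, against 3.83% of 32851 mouse promoters. ATTGG, which every full Y-box contains, was in 4 of the 9 (Olig3, Dbx1, Nkx6-2 and Olig2), against 33.8% of all promoters. The GLI site was in 0 of the 9, against 0.225%, and the E-box in 4, against 66.2%. The sequences with the full Y-box are printed here, 5′ to 3′ on the gene's strand. Among the 9, only these 2 genes held the element that names the deleted gene within the bases searched. Capitals mark each match of ATTGG or CTGATTGG, which reads CCAAT or CCAATCAG where it lies on the opposite strand. The E-box is not marked: Nkx6-2 held 1 and Dbx1 held 0.
Dbx1, chr7:49636836-49637085, minus strand: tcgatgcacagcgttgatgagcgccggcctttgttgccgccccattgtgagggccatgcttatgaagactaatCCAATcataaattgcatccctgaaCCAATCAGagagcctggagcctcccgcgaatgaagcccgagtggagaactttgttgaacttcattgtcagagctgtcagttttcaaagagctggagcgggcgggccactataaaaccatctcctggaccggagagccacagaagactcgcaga
Nkx6-2, chr7:139582798-139583047, minus strand: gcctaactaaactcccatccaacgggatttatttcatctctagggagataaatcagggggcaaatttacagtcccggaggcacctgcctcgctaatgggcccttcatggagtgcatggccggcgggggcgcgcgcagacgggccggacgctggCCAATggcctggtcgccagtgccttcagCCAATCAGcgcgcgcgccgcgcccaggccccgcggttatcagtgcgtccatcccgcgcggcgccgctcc
The full Y-box ends 145 bases before the start of Dbx1 and 61 bases before that of Nkx6-2. These are matches of letters. The paper mapped Ybx1 binding in NPCs by CUT&RUN-seq, and those data were not examined at these sites here.

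The libraries held between 4743279 counts on genes (F) and 23883542 (B), and a floor of 3 counts came to between 0.126 and 0.632 CPM, the unit of counts scaled to the size of each library. Such floors cover counting error only. Library F stood apart, with 7.22% of its read pairs on genes and counts on many receptor genes of the nose and tongue that are silent in NPCs: across 1942 of them the median level was 0.463 FPKM (counts per exon length, scaled by the counts of the whole library on genes) in F and 0 in each of the other 5 libraries. Controls A and B share a number in their titles, as do Ybx1-KO D and E. Its meaning is not given, so libraries of a group may come from the same litter, and p-values then measure the spread between these samples only. Every pair of libraries differed by more than sampling noise. Ybx1 itself stood at 238 to 531 CPM in the controls and at 9.66 to 126 CPM in the knockouts (log2 fold change -2.49, adjusted p = 0.301 in edgeR), lower in each Ybx1-KO library than in any control but not at 0.

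Across the 10 genes, the fitted level in Ybx1-KO NPCs exceeded that in control NPCs for every gene, and for none of them did the difference pass the test. Of 21324 genes tested by edgeR's quasi-likelihood test, 0% were called (adjusted p under 0.05, with a fold change over 1.5), and so were 0 of the 10. The adjusted p ran from 0.359 for Irx3 to 0.965 for Olig2 in this test. At an unadjusted p below 0.05, 5 of the 10 stood higher (Dbx1, Irx3, Nkx6-1, Nkx6-2 and Nkx2-2), where 6.96% of all tested genes did, and 0 stood lower, where 4.26% did. A positive log2 fold change was found in 61.3% of all tested genes, whose median was 0.31, against a median of 1.41 over the 10 genes. Relative to that median of all genes, 8 of the 10 lay above it and Pax7 and Olig2 did not. Of the 10, 9 had a mean above 1 FPKM in both groups, and Dbx2 entered the test through its Ybx1-KO mean alone. Among the alternatives tried, calls appeared when a library was left out or low genes were kept. Without control B, where 0.34% of all tested genes were called, Nkx6-1 was called (log2 fold change 3.35, adjusted p = 0.0332 in edgeR). Without Ybx1-KO D, where 2.87% were called, it was called too (1.86, adjusted p = 0.0125 in edgeR), but not when the tested genes were held to those of all 6 libraries (1.91, adjusted p = 0.151 in edgeR, with 0.502% of genes called). Holding the tested genes in this way was chosen after seeing the data. Irx3 was called without Ybx1-KO E, where 3.89% of all tested genes were called (2.59, adjusted p = 0.000193 in edgeR). It was also called with no filter on low counts, where 0.451% were called (2.02, adjusted p = 0.0467 in edgeR). Its log2 fold change fell to 0.91 without Ybx1-KO D, the library highest for Irx3 (adjusted p = 0.484 in edgeR).

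**Figure D1:**
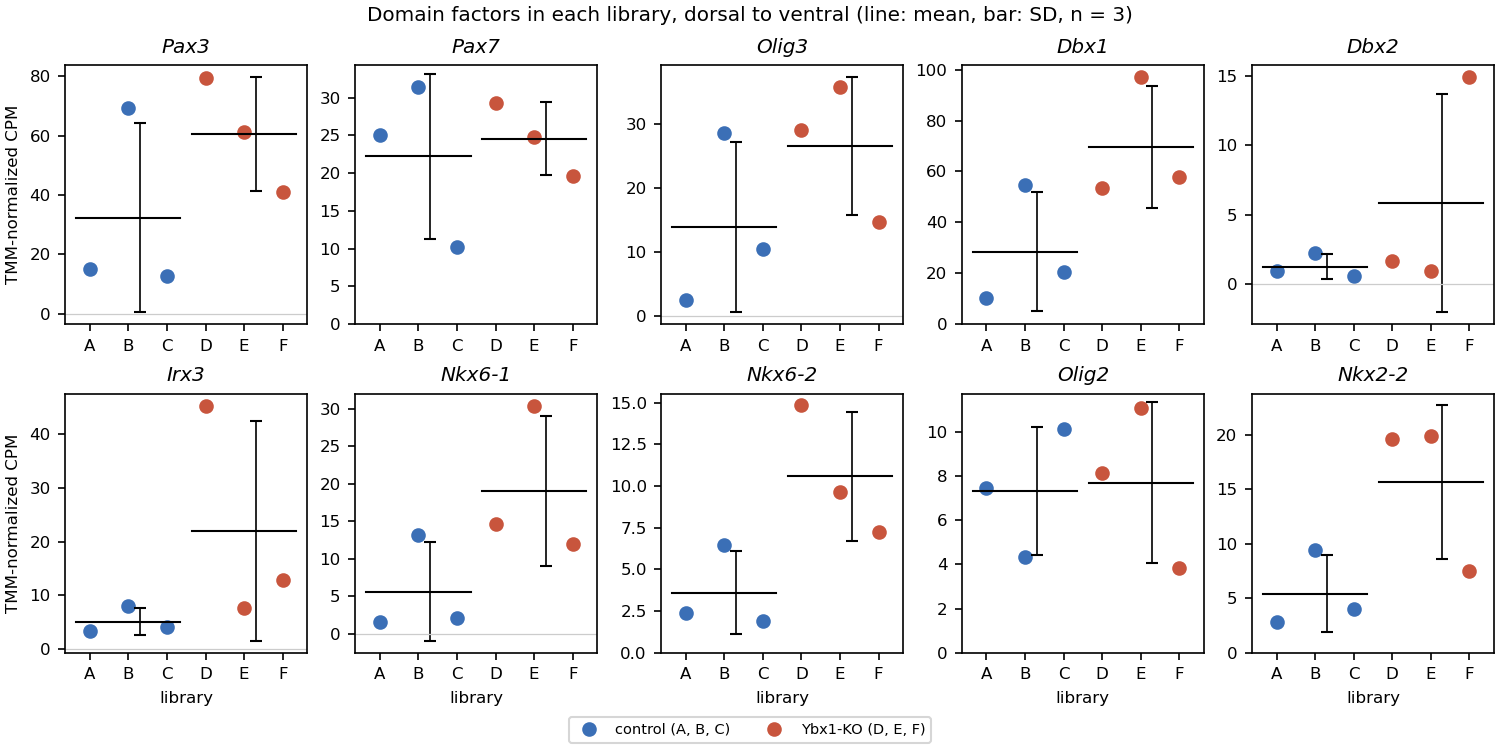
TMM-normalized CPM of each gene in the 6 libraries, from dorsal (Pax3) to ventral (Nkx2-2), with controls A, B and C in blue and Ybx1-KO D, E and F in red; lines are group means and bars the SD (n = 3). Control B is the highest control for 9 of the 10 genes and overlaps the Ybx1-KO libraries for the same number, and only Nkx6-2 has every Ybx1-KO library above every control.

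The control libraries did not form a tight group for these genes. Control B was the highest control for 9 of the 10, all except Olig2, and lay above the lowest Ybx1-KO library for 9 of the 10, all except Nkx6-2. The lowest level of the 6 libraries was in control A for 5 genes, in control C for 4 and in Ybx1-KO F for 1, and the highest was in Ybx1-KO E for 5, D for 3, F for 1 and in control B for 1. Only Nkx6-2 had every Ybx1-KO library above every control, 1 of 10, where 4.98% of all tested genes did, and 0 genes had every Ybx1-KO library below, where 8.16% did. Without control B the number rose to 7 of 10 (Pax3, Olig3, Dbx1, Irx3, Nkx6-1, Nkx6-2 and Nkx2-2), where 8.46% of all tested genes then separated in that direction. Without Ybx1-KO F it was 4 (Olig3, Nkx6-1, Nkx6-2 and Nkx2-2), against 10.3% of all tested genes. It was 2 without D (Dbx1 and Nkx6-2), against 11.6%, and 2 without E (Irx3 and Nkx6-2), against 10.6%. Without A or without C it stayed at 1, against 6.25% and 8%.

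The same libraries differed in the level of marker genes of the posterior and anterior neural tube. The summed level of 25 Hox genes, which mark hindbrain and spinal cord, was 115, 1012 and 298 CPM in the control libraries A, B and C and came to 1207, 1295 and 574 CPM in D, E and F. The summed level of 16 forebrain genes was 1466, 362 and 1735 CPM in A, B and C and came to 760, 517 and 220 CPM in D, E and F. Controls A and C were thus the lowest for the Hox list and the highest for the forebrain list, and control B was closer to the Ybx1-KO libraries on both. Olig3, Nkx6-1 and Nkx2-2 each ranked the 6 libraries in the same order as the summed Hox list, from A through C, F, B and D to E. All 25 Hox genes were tested, 24 with a positive log2 fold change, and all 16 forebrain genes, 5 of them positive. No Hox gene was at 0 in any library, and Emx1 of the forebrain list was at 0 in D. The part of these differences in the levels of the domain factors was not tested, and in bulk RNA fewer cells of a type and less RNA per cell cannot be told apart.

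**Figure D2:**
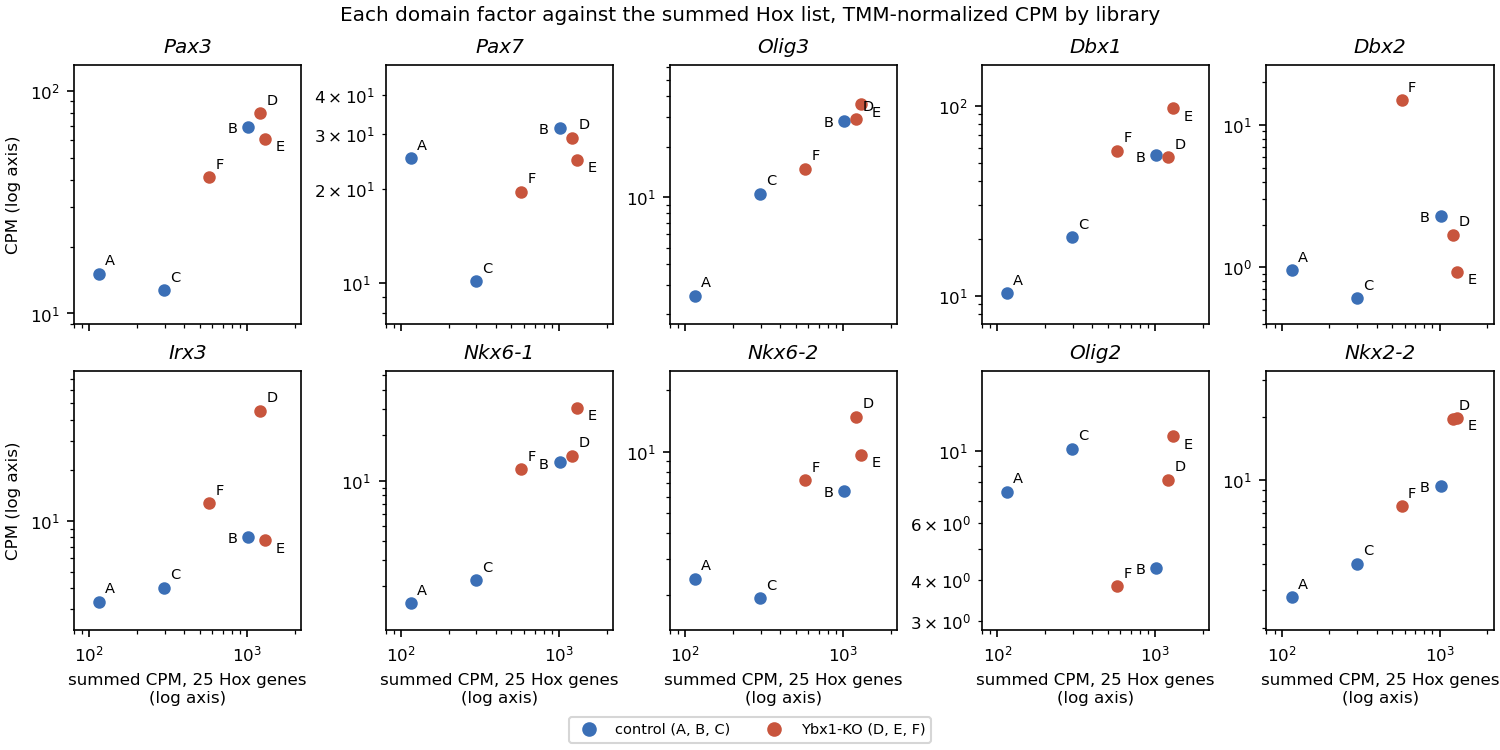
TMM-normalized CPM of each gene (vertical, log axis) against the summed CPM of 25 Hox genes (horizontal, log axis), 1 point per library, controls in blue and Ybx1-KO in red. For Olig3, Nkx6-1 and Nkx2-2 the libraries with more Hox transcripts also hold more of the gene, and for Pax7, Dbx2 and Olig2 they do not line up in this way.

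Pax3, a paired-box factor of dorsal progenitors, stood at 15.1, 69.3 and 12.8 CPM in the control libraries A, B and C and at 79.5, 61.1 and 40.9 CPM in their Ybx1-KO counterparts D, E and F. Control B lay among the Ybx1-KO libraries and the other controls well below them. The means were 32.4 ± 32.0 CPM in control and 60.5 ± 19.3 CPM in Ybx1-KO NPCs (SD, n = 3), with a log2 fold change of 0.90 (SE 0.548, adjusted p = 0.475 in edgeR).

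Pax7, its close relative with a similar dorsal domain, stood at 25.1, 31.4 and 10.2 CPM in A, B and C and at 29.3, 24.8 and 19.6 CPM in D, E and F. Here control A was as high as the Ybx1-KO libraries, and the groups overlapped throughout. The means were 22.2 ± 10.9 CPM in control and 24.6 ± 4.83 CPM in Ybx1-KO NPCs (SD, n = 3), with a log2 fold change of 0.15 (95% interval -0.78 to 1.07, adjusted p = 0.892 in edgeR) that became -0.20 without control C and -0.06 without Ybx1-KO D. The log2 ratio of Pax3 to Pax7 within a library, in FPKM, was -0.81, 1.06 and 0.25 in A, B and C and 1.36, 1.22 and 0.98 in D, E and F, so that Pax3 was the higher of the pair in every library but A.

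Olig3, a basic helix-loop-helix factor of the most dorsal domains, stood at 2.59, 28.6 and 10.5 CPM in A, B and C and at 29.1, 35.8 and 14.8 CPM in D, E and F. Control A was the lowest by far, and control B was close to Ybx1-KO D. The means were 13.9 ± 13.3 CPM in control and 26.6 ± 10.8 CPM in Ybx1-KO NPCs (SD, n = 3), with a log2 fold change of 0.94 (SE 0.619, adjusted p = 0.494 in edgeR).

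Dbx1, a homeodomain factor of the intermediate p0 domain, stood at 10.3, 54.7 and 20.3 CPM in A, B and C and at 53.5, 97.1 and 57.8 CPM in D, E and F. Control B reached just above the lowest Ybx1-KO library, D. The means were 28.4 ± 23.3 CPM in control and 69.5 ± 24.02 CPM in Ybx1-KO NPCs (SD, n = 3), with a log2 fold change of 1.29 (SE 0.514, adjusted p = 0.439 in edgeR). Per length, Dbx1 was the most abundant of the 10 in both groups, at 12.4 ± 9.73 FPKM in control and 33.7 ± 7.21 FPKM in Ybx1-KO NPCs (SD, n = 3).

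Dbx2, which spans the intermediate domains around that of Dbx1, was the least abundant, with 20, 49 and 12 counts in A, B and C and 15, 9 and 105 counts in D, E and F. These came to 0.959, 2.29 and 0.610 CPM in the controls and 1.70, 0.935 and 14.9 CPM in Ybx1-KO NPCs. Only library F was high, and D and E lay within the range of the controls. Its log2 fold change was 2.17 (95% interval -0.24 to 4.58, adjusted p = 0.450 in edgeR), and without F it was 0.03, on the genes tested with all 6 libraries. In library F, 1.08% of the 1942 receptor genes stood at or above the 6.38 FPKM of Dbx2. The part of this background in the value of Dbx2 was not tested.

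Irx3, an Iroquois factor of the intermediate domains that lies dorsal to the Olig2 boundary, stood at 3.31, 8.00 and 4.01 CPM in A, B and C and at 45.4, 7.69 and 12.8 CPM in D, E and F. Ybx1-KO D was far above all the others, and E lay just below control B. The means were 5.11 ± 2.53 CPM in control and 21.9 ± 20.4 CPM in Ybx1-KO NPCs (SD, n = 3), with a log2 fold change of 2.10 (SE 0.622, adjusted p = 0.359 in edgeR). Irx3 shares 124 exon bases with Irx3os, a transcript from the opposite strand, and since the strand setting of the counting is not given in the sources used here, reads of this stretch may have gone to either or to neither. Irx3os stood at 0.720, 3.70 and 0.864 CPM in A, B and C and at 9.41, 5.09 and 7.10 CPM in D, E and F, higher in every Ybx1-KO library.

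Nkx6-1, a homeodomain factor of ventral progenitors, stood at 1.54, 13.2 and 2.18 CPM in A, B and C and at 14.6, 30.4 and 11.9 CPM in D, E and F. Controls A and C lay far below every Ybx1-KO library, and control B lay between F and D. The means were 5.64 ± 6.55 CPM in control and 19.0 ± 9.99 CPM in Ybx1-KO NPCs (SD, n = 3), with a log2 fold change of 1.75 (SE 0.700, adjusted p = 0.439 in edgeR).

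Nkx6-2, its paralogue in the ventral cord, stood at 2.40, 6.46 and 1.93 CPM in A, B and C and at 14.9, 9.66 and 7.25 CPM in D, E and F. This was the only gene of the 10 without overlap, and the gap between control B and Ybx1-KO F was small beside the range of either group. The means were 3.60 ± 2.49 CPM in control and 10.6 ± 3.89 CPM in Ybx1-KO NPCs (SD, n = 3), with p = 0.1 by an exact two-sided permutation test, which cannot give a smaller value here. The fitted log2 fold change was 1.56 (SE 0.662, adjusted p = 0.444 in edgeR). Its 3′ end shares 246 bases with Inpp5a on the opposite strand, a phosphatase gene that stood between 7.72 and 12.7 CPM in control and between 12.6 and 22.1 CPM in Ybx1-KO NPCs, so part of its counts is uncertain.

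Olig2, a basic helix-loop-helix factor of motor neuron progenitors and later of oligodendrocyte precursors, stood at 7.48, 4.35 and 10.2 CPM in A, B and C and at 8.16, 11.1 and 3.84 CPM in D, E and F. It was the only one of the 10 for which control B was the lowest control, and the groups overlapped almost completely. The means were 7.33 ± 2.91 CPM in control and 7.70 ± 3.66 CPM in Ybx1-KO NPCs (SD, n = 3), with a log2 fold change of 0.07 (95% interval -1.22 to 1.37, adjusted p = 0.965 in edgeR). It was -0.19 without control B, -0.01 without Ybx1-KO D and -0.21 without E. In library F, 10.5% of the receptor genes stood at or above the level of Olig2, the largest such share for any of the 10.

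Nkx2-2, a homeodomain factor of the domain next to the floor plate, stood at 2.78, 9.41 and 4.01 CPM in A, B and C and at 19.6, 19.8 and 7.53 CPM in D, E and F. Ybx1-KO D and E lay above all controls, and F lay below control B. The means were 5.40 ± 3.52 CPM in control and 15.7 ± 7.04 CPM in Ybx1-KO NPCs (SD, n = 3), with a log2 fold change of 1.54 (SE 0.586, adjusted p = 0.433 in edgeR). A pair of opposite-strand transcripts overlap this gene. Nkx2-2os, with 278 shared exon bases, stood between 0.305 and 2.25 CPM in control and 0.567 and 5.92 CPM in Ybx1-KO NPCs, and 6430503K07Rik, which lies inside Nkx2-2 without sharing exon bases, between 0.144 and 1.12 CPM in control and 1.99 and 16.1 CPM in Ybx1-KO NPCs. Counts on these stretches are uncertain for the same reason as for Irx3.

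**Figure D3:**
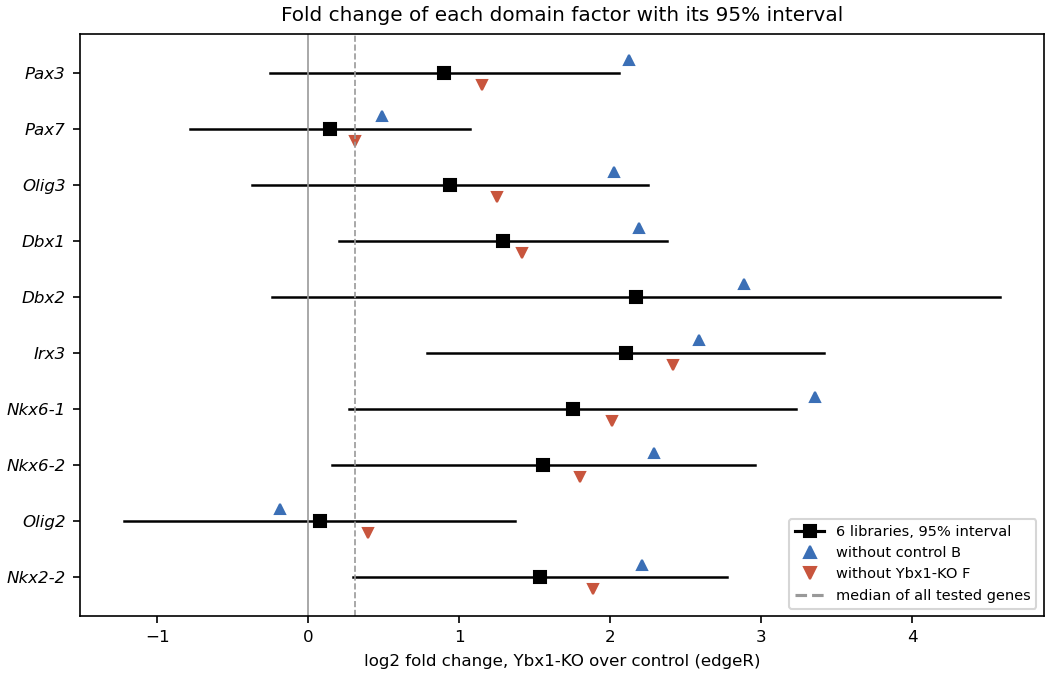
Log2 fold change of each gene, Ybx1-KO over control, from edgeR (squares) with its 95% interval (lines), and the value without control B (blue) or without Ybx1-KO F (red; none for Dbx2, which then falls below the expression filter). The dashed line is the median of all tested genes, 0.31; the intervals of Pax3, Pax7, Olig3, Dbx2 and Olig2 include 0.

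The genes were also summed by domain, as a description of these libraries without a test. The dorsal sum of Pax3, Pax7 and Olig3 was 7.98, 27.1 and 8.09 FPKM in A, B and C and 33.2, 22.7 and 25.4 FPKM in D, E and F, with control B among the Ybx1-KO libraries. The intermediate sum of Dbx1, Dbx2 and Irx3 was 6.41, 26.6 and 10.4 FPKM in A, B and C and 44.2, 35.8 and 54.3 FPKM in D, E and F, and it did not overlap on this scale or in TMM-normalized CPM. The ventral sum of Nkx6-1, Nkx6-2, Olig2 and Nkx2-2 was 5.67, 11.3 and 6.50 FPKM in A, B and C and 23.4, 18.8 and 17.4 FPKM in D, E and F. It did not overlap in FPKM but did in TMM-normalized CPM, where control B stood at 33.4 CPM and F at 30.5 CPM. FPKM here takes no TMM factor, and on that scale all Ybx1-KO libraries exceeded all controls for 4 of the 10 genes (Dbx1, Nkx6-1, Nkx6-2 and Nkx2-2), where 5.88% of all tested genes did, and lay below them for 0, where 5.26% did.

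The order of the levels per length was read within each group. In control NPCs, Dbx1 was followed by Olig3 (6.07 ± 5.68 FPKM), Pax3 (4.78 ± 4.54), Pax7 (3.55 ± 1.73), Olig2 (2.72 ± 1.08), Nkx6-2 (1.74 ± 1.13), Nkx2-2 (1.72 ± 1.05), Irx3 (1.71 ± 0.771), Nkx6-1 (1.63 ± 1.85) and Dbx2 (0.343 ± 0.223), each a mean FPKM ± SD over 3 libraries. The ranges of all neighbours in this order overlapped. In Ybx1-KO NPCs the order was Dbx1, Olig3 (12.6 ± 2.02 FPKM), Pax3 (10.1 ± 3.12), Irx3 (8.65 ± 7.69), Nkx6-1 (5.83 ± 1.09), Nkx6-2 (5.80 ± 2.22), Nkx2-2 (5.32 ± 1.63), Pax7 (4.41 ± 1.17), Olig2 (2.93 ± 0.593) and Dbx2 (2.36 ± 3.48). Of these neighbours, only Dbx1 and Olig3 had ranges that did not overlap. Pax7 and Olig2 took ranks 4 and 5 in control and ranks 8 and 9 in Ybx1-KO NPCs, behind Irx3, Nkx6-1, Nkx6-2 and Nkx2-2.

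**Figure D4:**
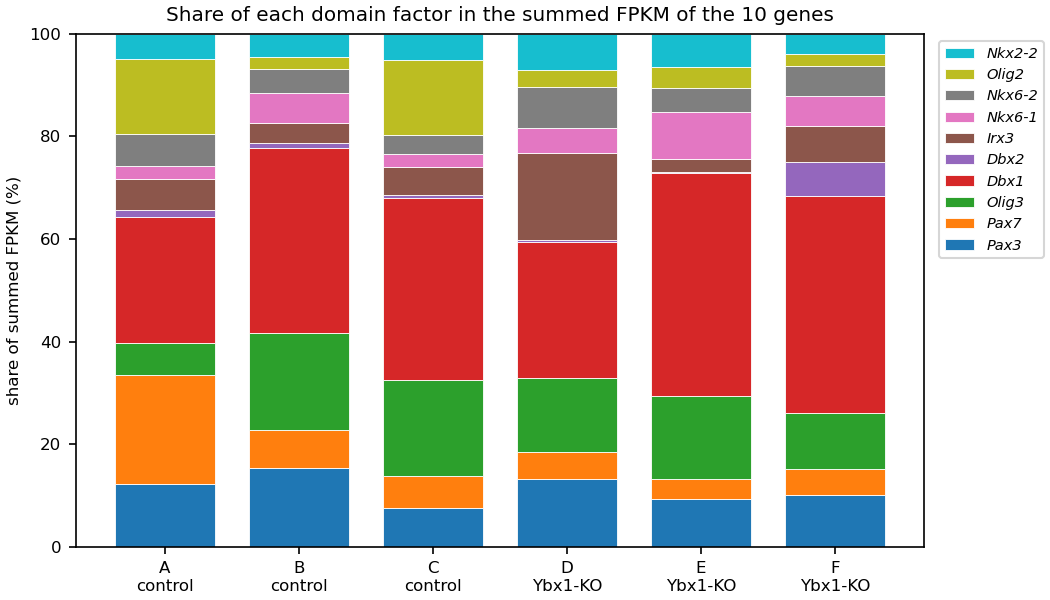
Share of each gene in the summed FPKM of the 10 genes, in percent, stacked for each library. Dbx1 holds the largest share in every library, from 24.6% in A to 43.4% in E, and the share of Olig2 is 14.7% in controls A and C but 2.37% in control B and 2.32 to 4.11% in the Ybx1-KO libraries.

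Shares and ratios within a library do not depend on how libraries are scaled to each other. The share of Olig2 in the summed FPKM of the 10 was 14.7, 2.37 and 14.7% in A, B and C and 3.33, 4.11 and 2.32% in D, E and F. The share of Pax7 was 21.3, 7.38 and 6.34% in the controls and 5.15, 3.96 and 5.11% in Ybx1-KO NPCs, below every control. Control B lay within the range of the Ybx1-KO libraries for the share of Olig2 and above it for that of Pax7.

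Ratios between genes of facing domains, taken as the log2 ratio of FPKM, overlapped between the groups in every case. Irx3 over Olig2, which meet at the dorsal edge of the motor neuron domain, was -1.30, 0.75 and -1.47 in A, B and C and 2.35, -0.66 and 1.61 in D, E and F. Dbx2 over Nkx6-1 was -0.82, -2.67 and -1.99 in the controls and -3.25, -5.17 and 0.18 in Ybx1-KO NPCs. These 2 ratios spread over several log2 units within each group. Dbx1 over Nkx6-2 was the steadiest of these pairs, at 1.97, 2.95 and 3.26 in the controls and 1.72, 3.20 and 2.86 in Ybx1-KO NPCs. Pax6 over Nkx2-2, which meet at a ventral boundary, was 1.70, 0.36 and 1.39 in the controls and -0.89, -0.52 and 0.77 in Ybx1-KO NPCs. Pax6 itself, expressed in most progenitors outside the most ventral and dorsal ones and in the forebrain, stood at 36.6, 49.0 and 42.8 CPM in control and 43.2, 56.2 and 52.1 CPM in Ybx1-KO NPCs, a narrow range beside that of Nkx2-2. Nkx2-2 over Olig2 was -1.61, 0.93 and -1.52 in the controls and 1.08, 0.65 and 0.79 in Ybx1-KO NPCs. The dorsal over the ventral sum was 0.49, 1.27 and 0.32 in the controls and 0.50, 0.27 and 0.54 in Ybx1-KO NPCs, with Ybx1-KO E just below the lowest control and D and F inside the range of the controls.

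Set against the Hox genes of the same library, the domain factors no longer stood higher in Ybx1-KO NPCs as a group. Per 1000 counts on the Hox list, 0 of the 10 had every Ybx1-KO library above every control, where 0.188% of all tested genes did, and 0 had every one below, where 14.6% did. Nkx2-2 came to 24.1, 9.29 and 13.45 counts per 1000 Hox counts in A, B and C and 16.2, 15.3 and 13.1 in D, E and F. Olig3 came to 22.5, 28.2 and 35.2 in the controls and 24.1, 27.7 and 25.8 in Ybx1-KO NPCs. For both, the Ybx1-KO libraries lay within the range of the controls. Nkx6-1 came to 13.3, 13.0 and 7.32 in the controls and 12.1, 23.5 and 20.8 in Ybx1-KO NPCs, and Olig2 to 64.9, 4.30 and 34.1 in the controls and 6.76, 8.58 and 6.69 in Ybx1-KO NPCs. With edgeR scaled to the Hox list in place of TMM, 4 of the 10 log2 fold changes were positive and 6 negative, from -2.22 for Olig2 to 1.16 for Dbx2. The median of all genes moved to -1.62 and that of the 10 to -0.055. As with TMM, 8 of the 10 lay above the median of all genes, and Pax7 and Olig2 did not. This scaling was chosen after seeing the data, and it takes the Hox genes as the reference without showing that they did not differ.

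Other cell types that express some of these genes were read from marker lists. Neural crest genes, which go with Pax3 and Pax7, summed to 217, 549 and 213 CPM in A, B and C and to 610, 484 and 266 CPM in D, E and F over 11 genes, with the 6 libraries in the same order as for Pax3. Of these genes 9 were tested, 8 with a positive log2 fold change, and none was at 0. Sox10, which defines neural crest and its glia, stood at 8.44, 16.1 and 19.2 CPM in the controls and 18.9, 95.5 and 10.4 CPM in Ybx1-KO NPCs, and did not rank the libraries as Pax3 did. Foxd3, a factor of early neural crest and of spinal interneurons, stood at 0.911, 4.31 and 0.610 CPM in the controls and 29.3, 17.7 and 8.38 CPM in Ybx1-KO NPCs. Skeletal muscle genes summed to 103, 62.2 and 64.6 CPM in the controls and 53.9, 49.3 and 57.8 CPM in Ybx1-KO NPCs over 13 genes, lower in each Ybx1-KO library than in any control. Of the muscle genes 8 were tested, 3 with a positive log2 fold change. Myod1 was at 0 in D and E, Myf5 in E and F and Myf6 in D and F. But Myf5 stood at 3.40 CPM in D, against 0.102 to 0.562 CPM in the controls. Myod1 stood at 1.28 CPM in F, against 0.254 to 0.468 CPM in the controls. Such control levels lie near the floor of 3 counts in D, E and F (0.354, 0.225 and 0.632 CPM). Genes of oligodendrocyte precursors, a list of 11 that holds Olig2 and Nkx2-2 themselves, summed to 104, 81.7 and 101 CPM in the controls and 81.3, 176 and 88.4 CPM in Ybx1-KO NPCs, and 4 of the 9 tested had a positive log2 fold change. Olig1, the neighbour of Olig2 on chromosome 16, stood at 7.96, 0.936 and 9.09 CPM in A, B and C and at 1.59, 2.29 and 1.85 CPM in D, E and F, high in controls A and C alone, as was the share of Olig2 among the domain factors. Midbrain and isthmus genes summed to 136, 421 and 153 CPM in the controls and 363, 410 and 186 CPM in Ybx1-KO NPCs over 9 genes. Progenitor genes, a check of the sort, summed to between 1752 and 1942 CPM in control and 1392 and 2470 CPM in Ybx1-KO NPCs over 12 genes, none of them at 0, and genes of neurons, which the sort should lower, to between 3719 and 6581 CPM in control and 2196 and 5304 CPM in Ybx1-KO NPCs over 14 genes. The other lists ranged from 523 to 1219 CPM in control and 204 to 1234 CPM in Ybx1-KO NPCs for 9 erythroid genes, from 166 to 907 CPM and 87.9 to 173 CPM for 10 mesenchymal genes, and from 27.8 to 78.2 CPM and 16.1 to 65.6 CPM for 10 endothelial and microglial genes. The part of these cell types in the levels of the domain factors was not tested.

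The other genes of dorsoventral patterning were taken from lists of known role. Of 11 further dorsal domain genes, all 11 were tested, 11 had a positive log2 fold change (61.3% of all tested genes did), 4 an unadjusted p below 0.05 upward (6.96% of all did) and 0 downward (4.26% did), and 0 passed the threshold; the median was 1.44 against 0.31 for all tested genes. In 6 of the 11 the Ybx1-KO libraries all exceeded the controls, as they did in 4.98% of all tested genes. Lmx1a, a LIM factor of the roof plate, stood at 5.37, 9.88 and 4.67 CPM in A, B and C and at 64.7, 12.6 and 13.2 CPM in D, E and F (log2 fold change 2.18, adjusted p = 0.315 in edgeR). Msx1, a target of BMP signals, stood at 2.78, 4.35 and 3.96 CPM in the controls and 20.4, 14.5 and 5.97 CPM in Ybx1-KO NPCs (1.88, adjusted p = 0.381 in edgeR). Msx2, its paralogue, had a log2 fold change of 1.92, Neurog1, a proneural factor of dorsal interneurons, of 1.81, Ptf1a, a selector of inhibitory dorsal neurons, of 2.06 and Atoh1, a proneural factor of the most dorsal interneurons, of 1.12, with adjusted p between 0.349 and 0.534 in edgeR. In these 6 genes, as in Pax3, Pax7 and Olig3, control B was the highest control.

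Of 10 further intermediate and ventral domain genes, all were tested, 7 had a positive log2 fold change, near the 61.3% of all tested genes, 3 an unadjusted p below 0.05 upward (6.96% of all) and 1 downward (4.26% of all), and the median was 0.70. Foxa2, the floor plate factor, had the largest difference, with a log2 fold change of 3.91 (adjusted p = 0.262 in edgeR). Foxn4, a factor of the p2 domain, stood at 1.15, 3.98 and 1.37 CPM in A, B and C and at 7.37, 7.27 and 8.10 CPM in D, E and F (1.80, adjusted p = 0.444 in edgeR). Prdm12, of the p1 domain, stood at 3.12, 25.9 and 8.94 CPM in the controls and 35.4, 62.0 and 10.2 CPM in Ybx1-KO NPCs, with overlap (1.51, adjusted p = 0.444 in edgeR). Prdm8, a transcriptional repressor that is also abundant in the forebrain, lay the other way, at 36.2, 25.9 and 50.2 CPM in the controls and 15.3, 25.4 and 21.9 CPM in Ybx1-KO NPCs (-0.84, adjusted p = 0.444 in edgeR).

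Of 14 genes of the Shh pathway, 13 were tested, 12 with a positive log2 fold change (61.3% of all tested genes), 2 with an unadjusted p below 0.05 upward (6.96% of all) and 0 downward (4.26% of all), and the median of 0.49 was near that of all genes. Shh itself stood at 2.59, 5.71 and 4.83 CPM in A, B and C and at 20.6, 9.87 and 5.54 CPM in D, E and F (1.46, adjusted p = 0.444 in edgeR), with control B just above F. Scube2, which helps release the ligand, stood at 5.56, 11.4 and 4.17 CPM in the controls and 18.6, 12.05 and 20.3 CPM in Ybx1-KO NPCs (1.27, adjusted p = 0.443 in edgeR). Gli1, a target of the pathway, stood at 3.84, 4.26 and 3.91 CPM in the controls and 3.97, 13.1 and 13.2 CPM in Ybx1-KO NPCs (1.33, unadjusted p = 0.0529 in edgeR). D lay just below control B, and E and F above all controls. Ptch1, another target, stood at 86.2, 164 and 71.8 CPM in the controls and 214, 216 and 115.9 CPM in Ybx1-KO NPCs (0.76, unadjusted p = 0.108 in edgeR). F lay below control B, and D and E above all controls. Gli1 and Ptch1 fall outside the rule for named genes and were named after their values were seen. Pathway activity was not tested.

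Of 14 genes of the dorsal BMP and Wnt signals, 11 were tested, 8 with a positive log2 fold change (61.3% of all tested genes), 3 with an unadjusted p below 0.05 upward (6.96% of all) and 1 downward (4.26% of all), with a median of 0.62. Wnt1, a roof plate and midbrain ligand, stood at 1.63, 1.87 and 0 CPM in A, B and C and at 7.71, 26.2 and 6.54 CPM in D, E and F (adjusted p = 0.349 in edgeR). Gdf7, a BMP ligand of the roof plate, stood at 0.0959, 1.26 and 0.305 CPM in the controls and 0.340, 10.8 and 2.98 CPM in Ybx1-KO NPCs. Ybx1-KO E was the highest, and D lay within the range of the controls. These levels rest on 2, 27 and 6 counts in the controls and 3, 104 and 21 counts in Ybx1-KO NPCs. Id3, a target of BMP signals, stood at 22.2, 16.2 and 18.5 CPM in the controls and 177, 37.9 and 37.8 CPM in Ybx1-KO NPCs (2.15, adjusted p = 0.266 in edgeR). Id2, of the same family, lay the other way with overlap, at 91.3, 18.9 and 56.9 CPM in the controls and 33.3, 23.99 and 24.3 CPM in Ybx1-KO NPCs (-1.03, adjusted p = 0.444 in edgeR). Smad6, an inhibitor of BMP signals, stood at 1.44, 2.25 and 1.83 CPM in the controls and 2.27, 2.91 and 3.69 CPM in Ybx1-KO NPCs (0.68, adjusted p = 0.782 in edgeR). Every Ybx1-KO library exceeded every control, as in 4.98% of all tested genes, but control B all but met Ybx1-KO D. Over all of these lists 0 genes passed the threshold in edgeR. Calls in the lists came with calls across all tested genes: 1 without control B (Msx3; 0.34% of all genes called), 5 without Ybx1-KO D (Gdf7, Msx3, Neurog1, Prdm12 and Wnt1; 2.87% of all) and 5 without Ybx1-KO E (Foxa2, Id3, Lmx1a, Msx3 and Neurog2; 3.89% of all). On the genes tested with all 6 libraries these became 1 without B (Msx3), 1 without D (Wnt1), 3 without E (Foxa2, Id3 and Lmx1a) and 2 without F (Foxa2 and Id3).

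**Figure D5:**
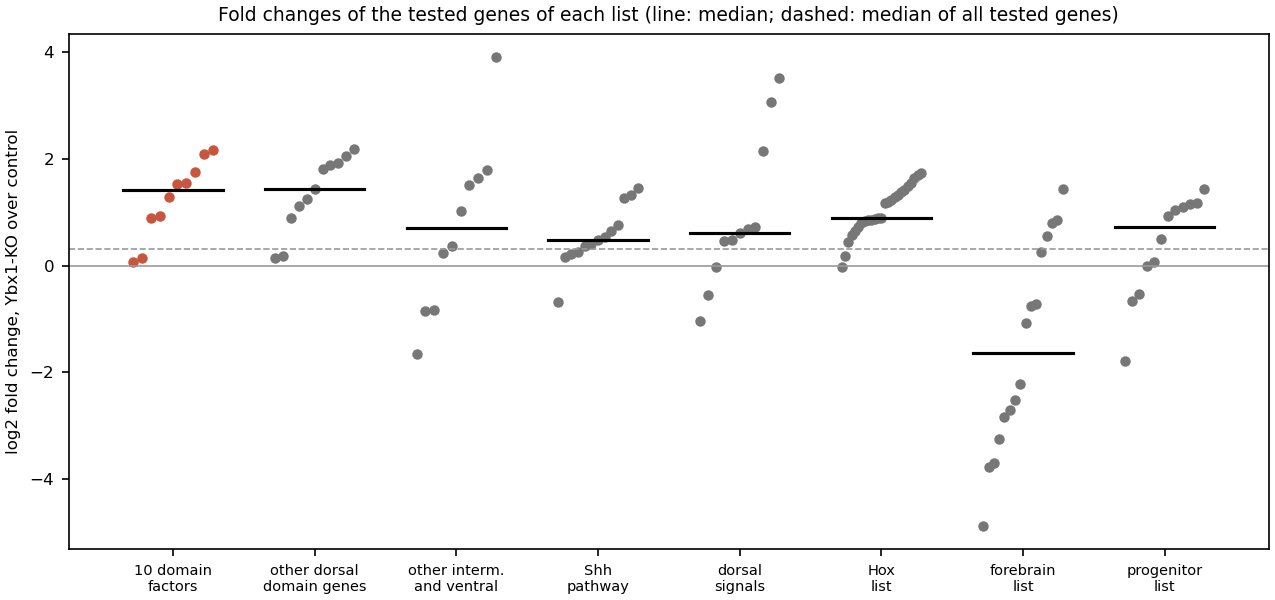
Log2 fold change, Ybx1-KO over control, of each tested gene in the lists of domain factors, other patterning genes and regional markers; lines are list medians and the dashed line the median of all tested genes, 0.31. The 10 domain factors (median 1.41) and the other dorsal genes (1.44) lie highest, the Hox list at 0.89 and the forebrain list at -1.64.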

How the data were processed

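RNA-seq libraries of 3 control and 3 Ybx1-KO samples were grouped by their genotype labels. The authors used HTSeq 0.6.1p1 to count mapped fragments by gene and deposited the raw counts of each library separately, not normalized and not pooled. The submitters' processing notes name the builds mm10 and GRCm38.p5; the aligner and the strand setting are not given in the sources used here, nor which of a pair of sequencer models ran which library, so no batch could be tested.

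Exon lengths and coordinates came from GENCODE M21 (GRCm38), with 47624 symbols matched, 356 by an older symbol and 3753 not, and promoters from RefSeq. FPKM was computed from union exon length and each library's total on genes. Genes with a mean above 1 FPKM in either group were tested by edgeR 4.0.16 (R 4.3.3) with TMM normalization, the quasi-likelihood test and Benjamini-Hochberg adjustment over all tested genes, with calls made at adjusted p < 0.05 and a fold change over 1.5. Single genes were also compared by a two-sided exact permutation test on TMM-normalized CPM, where 3 against 3 cannot go below 0.1. Reads shared by overlapping genes or near copies remain uncertain. Figures were drawn with matplotlib 3.10.9. The scripts were tested on simulated data with 200 changed genes.

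The domain factors, the lists and the tests were chosen with earlier results of these data known. Named were all 10 domain factors, Ybx1, genes overlapping a domain factor, and from each pathway list up to 6 genes with the smallest p among those with an unadjusted p below 0.05 or without overlap. Alternatives were limma-voom (limma 3.58.1), DESeq2 1.42.0, other scalings and filters, protein-coding genes alone, no limit on fold change, and leaving out each library. Erythroid, mesenchyme and endothelial or microglial lists were also summed.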

Additional observations from a re-analysis of the deposited data

How the results depend on the processing

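No paired analysis was possible because the labels give control and Ybx1-KO libraries no shared replicate numbers. Of the 10 domain factors, 1 passed the threshold with no filter on low counts (Irx3), and between 0 and 1 when a library was left out. limma-voom, DESeq2, other scalings and the other filters gave 0. Of the other patterning genes, 2 passed in DESeq2 (Foxa2 and Id3; 1% of all tested genes), 4 with no filter (Foxa2, Id3, Lmx1a and Wnt1), and between 0 and 5 when a library was left out. Over all tested genes edgeR called 0, with 2393 at an unadjusted p below 0.05; limma-voom called 0, with 1655, and DESeq2 called 118 higher and 96 lower. The number of domain factors with all Ybx1-KO libraries above the controls was 4 with total counts (5.88% of all tested genes), 3 with RLE scaling (6.34%), 2 with upper quartile scaling (6.13%), 3 with protein-coding genes alone (7.44%), 0 per Hox count (0.188%), and between 1 and 7 when a library was left out.

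Scaled to the Hox list, the log2 fold change turned to -0.39 for Pax3, -1.86 for Pax7, -0.15 for Olig3, -0.047 for Nkx6-2, -2.22 for Olig2 and -0.063 for Nkx2-2. Leaving out a library took Pax7 between -0.20 and 0.48 and Olig2 between -0.29 and 0.40. Of 219 fold changes under other settings, 199 kept their direction and side of the threshold, 6 kept their direction and passed it, and 14 reversed. The median of all genes moved from 0.31 to 0.51 with total counts, to 0.70 with no filter and to 0.01 without library F. The cause of these shifts was not tested. Dbx2 fell below the expression filter without F and has no value there, apart from that on the genes of all 6 libraries. Depth limits Dbx2 most, with 9 to 105 counts.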
